A study of Homo sapiens with 6 samples.

Results

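The genes described here are 10 feedback and output genes of the ERK pathway, chosen by name from the deposited expression table and matched by Ensembl identifier to GENCODE release 44 symbols. They are DUSP4, DUSP5, DUSP6, SPRY2, SPRY4, SPRED1, SPRED2, ETV4, ETV5 and PHLDA1, and all 10 were found among the 28563 genes of the table. RNA was sequenced from cells labelled HepG2, an established human liver cancer line. They were treated for 24 h with 336 µM polydatin (PD), a plant glucoside of resveratrol, or with DMSO, the solvent of PD. Each treatment had 3 dishes of the same line and 1 library per dish. The dose is that of the sample labels, and the study's methods give a somewhat lower one.

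The ERK pathway carries signals from growth factor receptors through RAS, RAF and MEK to the ERK kinases. Active ERK switches on a set of genes that feed back on the pathway, and their mRNA is widely used as a readout of ERK output. The dual-specificity phosphatases encoded by the DUSP genes remove phosphate from MAP kinases, the Sprouty and Spred proteins act upstream between the receptors and RAF, and ETV4 and ETV5 are ETS transcription factors of the PEA3 group.

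Library totals worked back from the values were 16308476 to 18071632 fragments, and the groups had similar depth. Values are FPKM, which are fragment numbers scaled to gene length and library total, so that levels of different genes can be compared per length. A gene was tested where its mean over the 6 libraries was at least 0.5 FPKM, which 14400 genes reached, with limma on log2(FPKM + 1), and it passed at an adjusted p (Benjamini-Hochberg over all tested genes) of at most 0.05. The label of the cells was checked against 17 hepatocyte markers, of which 8 were analysed here, and CPS1 and RBP4 were those reaching 1 FPKM in any library. The factor HNF4A reached at most 0.106 FPKM in a library, and 6 of the 8 markers analysed, HNF4A among them, had a mean below 0.5 FPKM. Most of the hepatocyte markers analysed were thus low and did not bear out the liver label. The rest of the 17 were not analysed, so this says nothing of them. The name HepG2 is used as the labels give it, and the identity of the cells was not tested further. The summed level of the 8 markers, nearly all of it CPS1, fell from between 222 and 229 FPKM in DMSO to between 107 and 113 FPKM in PD. On the log2 scale CPS1 fell by 1.04 while RBP4 rose by 0.71, and the part of these shifts in the results below was not tested. Of markers of other cells, the epithelial genes EPCAM, KRT8 and KRT18 and the fibroblast gene COL1A1 reached 1 FPKM, and none of the blood or endothelial markers did. The summed epithelial level was 95.4 to 101 FPKM in DMSO and 114 to 120 FPKM in PD, and the fibroblast level was 3.70 to 4.36 FPKM and 3.67 to 4.07 FPKM, the part of which was likewise not tested.

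In PD-treated cells, 5 of the 10 genes were higher and 0 were lower at the adjusted p of 0.05, where 58.1% of all tested genes passed the test, 31.9% higher and 26.2% lower in PD. The share of these genes that passed, 5 of 10, was thus near that of all genes. By the ratio of mean FPKM the increases were 3.77-fold for DUSP5, 3.72-fold for SPRY4, 2.85-fold for DUSP6, 1.74-fold for ETV5 and 1.18-fold for SPRED1. DUSP4, SPRY2, SPRED2, ETV4 and PHLDA1 did not pass, with 95% confidence intervals that all lay between -0.31 and 0.22 on the log2(FPKM + 1) scale. The families therefore held unequal changes, with a strongly changed member beside one that did not pass among the DUSP, Sprouty and PEA3 genes. The libraries of the groups did not overlap for 7 of the 10 genes, against 65.4% of all tested genes, and in 6 of them the PD libraries were the higher, against 35.6%. The median log2 fold change was 0.15 over the 10 genes and 0.01 over all tested genes. All 10 genes passed the filter on low values, and SPRY4, whose DMSO mean was 0.495 FPKM, passed it through its PD libraries. In bulk RNA such as this, a change in the share of cells that express a gene and a change in its mRNA per cell cannot be told apart.

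**Figure D1:**
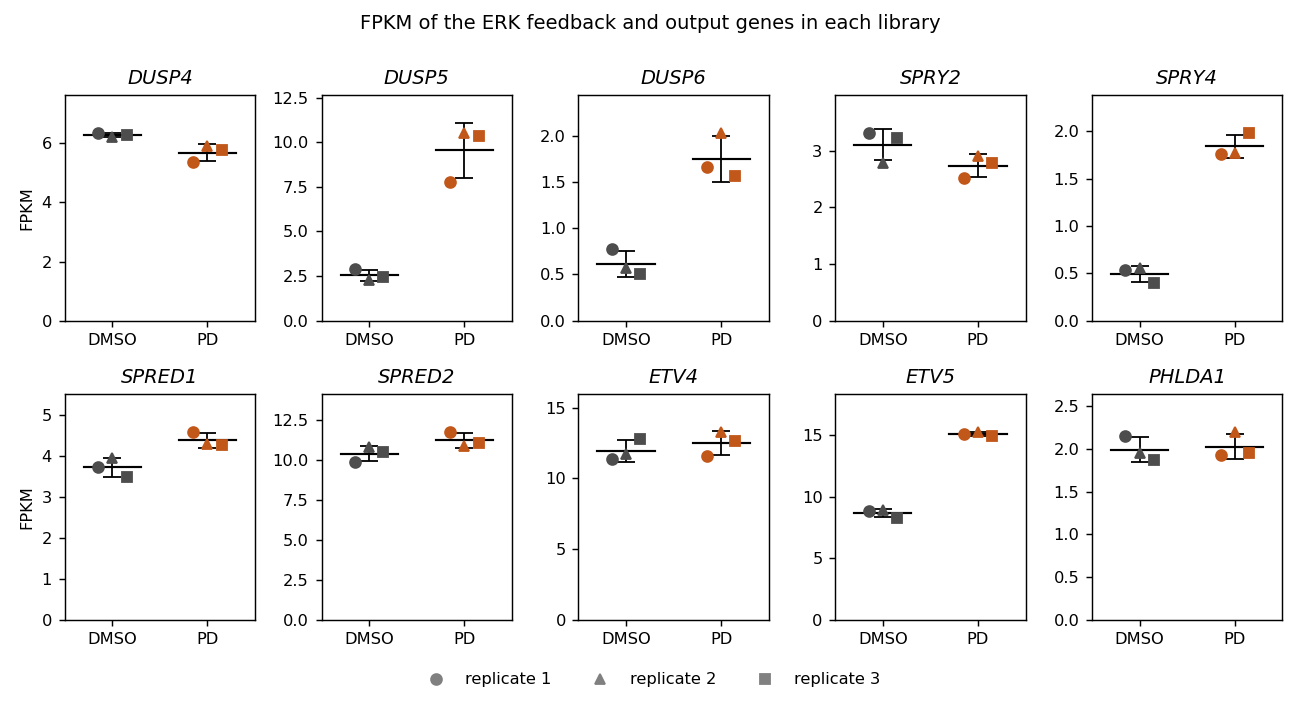
Level of each gene in FPKM (linear vertical axes from 0, each with its own range) in the 3 DMSO and 3 PD libraries, with the mean as a line, the SD as error bars and the replicate number as the marker shape. DUSP5, DUSP6, SPRY4 and ETV5 show a wide gap between the groups, whereas the libraries of SPRY2, ETV4 and PHLDA1 overlap.

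RefSeq promoter windows were available for 6 of the 10 genes (DUSP6, SPRY2, SPRY4, SPRED1, SPRED2 and PHLDA1), and the 250 bases before the start of the gene, in the outermost RefSeq transcript, were read on build GRCh38.p14. These windows were searched on both strands for the CIC octamer (TGAATGAA, TGAATGGA, TCAATGAA or TCAATGGA), the site of the repressor CIC that is released when ERK is active, for a PEA3 site (AGGAAG), an ETS site (CCGGAAGT), an AP-1 site (TGANTCA), a cAMP response element (TGACGTCA) and its shorter form (TGACG, which the longer one contains), the CArG box of serum response factor, a GC box (GGGCGG), an E-box (CACGTG) and, on the gene's strand alone, a TATA box (TATAAA). The ETS and PEA3 letters share the core GGAA. The 3 windows shown are those of DUSP6 (chr12:89352502-89352751, minus strand), which rose strongly, SPRED1 (chr15:38252586-38252835, plus strand), which rose little, and SPRY2 (chr13:80341127-80341376, minus strand), which did not pass the test. Capitals mark the CIC octamer and the PEA3 sites on either strand, and the GC box and TGACG are left in lower case.
DUSP6: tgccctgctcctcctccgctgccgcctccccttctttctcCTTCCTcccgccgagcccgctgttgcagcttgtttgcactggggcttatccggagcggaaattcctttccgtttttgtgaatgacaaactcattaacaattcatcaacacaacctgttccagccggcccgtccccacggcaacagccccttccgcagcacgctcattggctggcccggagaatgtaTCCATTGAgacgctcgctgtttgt
SPRED1: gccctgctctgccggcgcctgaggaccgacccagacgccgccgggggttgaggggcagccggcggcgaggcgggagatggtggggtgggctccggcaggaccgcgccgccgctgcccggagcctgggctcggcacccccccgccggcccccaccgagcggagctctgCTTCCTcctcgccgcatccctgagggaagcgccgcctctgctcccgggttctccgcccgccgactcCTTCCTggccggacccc
SPRY2: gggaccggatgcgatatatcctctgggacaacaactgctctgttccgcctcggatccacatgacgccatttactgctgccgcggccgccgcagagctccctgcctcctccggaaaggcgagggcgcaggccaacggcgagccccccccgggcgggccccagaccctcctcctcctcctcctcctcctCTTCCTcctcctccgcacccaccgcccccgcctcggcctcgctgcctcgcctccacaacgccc
The DUSP6 window held TCCATTGA, the CIC octamer TCAATGGA read on the other strand, at 24 to 17 bases before the start. This was the match to the octamer among the 6 genes, and 3.18% of 35116 RefSeq windows of the same length held one. PEA3 sites were found in 4 of the 6 windows, against 28.7% of all windows. Of these windows SPRED2 held 3, SPRED1 held 2, and SPRY2 and DUSP6 held 1 each, so the letters were found beside genes that passed and genes that did not. The GC box was found in 4 of the 6 windows (SPRY2, SPRY4, SPRED1 and PHLDA1), against 42.6% of all windows, and TGACG in 2 (SPRY2 and SPRY4), against 21.2%. The ETS site (3.42% of all windows), the AP-1 site (6.57%), the full cAMP response element (1.65%), the CArG box (1.16%), the TATA box (6.80%) and the E-box (6.34%) had 0 matches in the 6 windows. The window of SPRY4 overlaps an annotated exon of the same gene and is not printed. That of SPRED2, from 65432600 on chromosome 2, also reaches into the annotated gene, which ends at 65432637. Its PEA3 site at 12 to 7 bases before the RefSeq start thus lies within the annotated gene.

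The 3 phosphatases changed in different ways. DUSP5 encodes a nuclear phosphatase that is selective for ERK, and lies on chromosome 10 from 110497907 to 110511533 (GRCh38). Its level was 2.90, 2.26 and 2.46 FPKM in DMSO replicates 1, 2 and 3, and 7.79, 10.5 and 10.4 FPKM in PD replicates 1, 2 and 3. The lowest PD library was above the highest DMSO library by more than the whole DMSO range. The mean rose from 2.54 ± 0.328 to 9.56 ± 1.54 FPKM (SD, n = 3 each). This is a log2 fold change of 1.57 ± 0.12 (SE; adjusted p = 3.69e-05, limma), and DUSP5 ranked 64 of 14400 by the size of the change. Of the 10 genes, DUSP5 alone passed a 2-fold threshold on this scale, as did 3.61% of all tested genes, or 2.04% counting higher genes alone.

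DUSP6 encodes the cytoplasmic phosphatase of ERK that is the textbook feedback gene of the pathway, on chromosome 12 from 89347235 to 89352501. It had 0.775, 0.567 and 0.505 FPKM in DMSO replicates 1, 2 and 3, and 1.66, 2.03 and 1.56 FPKM in PD replicates 1, 2 and 3. All PD libraries were thus above the highest DMSO library, with no overlap. DUSP6 had a log2 fold change of 0.77 ± 0.11 (SE, adjusted p = 0.00065, limma). DUSP6 rested on 40 to 62 fragments per DMSO library and 118 to 165 per PD library, where counting alone gives an SD of 14.3% per DMSO library. An antisense lncRNA, ENSG00000274021, shares 1105 exon bases with DUSP6 and was not analysed here, so reads of this pair may be mixed.

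DUSP4, a nuclear phosphatase of ERK and other MAP kinases on chromosome 8, was the most abundant of the 3 phosphatases in DMSO. It had 6.36, 6.21 and 6.28 FPKM in DMSO replicates 1, 2 and 3, and 5.38, 5.91 and 5.76 FPKM in PD replicates 1, 2 and 3. The PD libraries lay below the DMSO libraries without overlap, but the log2 fold change of -0.12 (standard error 0.05) had an adjusted p of 0.0637 (limma) and did not pass. Median-of-ratios scaling took the adjusted p to 0.0404 and upper quartile scaling took it to 0.00548, so that a lower level was called under both.

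The relative amounts of the 3 phosphatases therefore differed between the groups. Their summed level was 9.44 ± 0.527 FPKM in DMSO against 17.0 ± 1.92 FPKM in PD (SD, n = 3 each). DUSP4 made up 66.7% ± 2.89 (SD, n = 3) of this sum in DMSO and 33.6% ± 2.32 (SD, n = 3) in PD. DUSP5 took the first place in PD, with 56.0% ± 3.14 (SD, n = 3) of the sum against 26.8% ± 1.96 (SD, n = 3) in DMSO. DUSP6 remained the smallest part, with 6.49% ± 1.15 in DMSO and 10.3% ± 1.31 in PD (SD, n = 3 each).

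Among the inhibitors that act upstream, SPRY4 showed the largest change. SPRY4 encodes a Sprouty protein that restrains RAS activation by receptors, on chromosome 5 from 142310427 to 142326455. It had 0.537, 0.553 and 0.394 FPKM in DMSO replicates 1, 2 and 3, and 1.76, 1.77 and 1.99 FPKM in PD replicates 1, 2 and 3. The groups were far apart, with the PD libraries close to each other. SPRY4 had a log2 fold change of 0.93 ± 0.09 (SE, adjusted p = 9.99e-05, limma). This p-value comes from a filter that SPRY4 passed through its PD libraries. With no filter on low values the adjusted p was 0.00074 (limma). The pseudocount of 1 FPKM is larger than the DMSO level, and with a pseudocount of 0.1 the log2 fold change was 1.71. It rested on 40 to 55 fragments per DMSO library and on 184 to 192 fragments per PD library.

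SPRY2, the family member with the higher level in both groups, encodes a Sprouty protein of the same function on chromosome 13 from 80335976 to 80341126. It had 3.32, 2.79 and 3.21 FPKM in DMSO replicates 1, 2 and 3, and 2.51, 2.91 and 2.79 FPKM in PD replicates 1, 2 and 3. These values overlapped, and the log2 fold change of -0.14 (standard error 0.08) had an adjusted p of 0.165 (limma). Upper quartile scaling gave -0.24 and an adjusted p of 0.0328.

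SPRED1 and SPRED2 encode Spred proteins, which bring the RAS inactivator neurofibromin to the membrane. SPRED1, on chromosome 15 from 38252836 to 38357249, had 3.72, 3.96 and 3.50 FPKM in DMSO replicates 1, 2 and 3, and 4.59, 4.28 and 4.26 FPKM in PD replicates 1, 2 and 3. The PD libraries were higher without overlap, by a small margin. The log2 fold change was 0.19 (standard error 0.06, adjusted p of 0.0293 from limma). This call was lost in 5 of the 6 fits that left out 1 library, all except that without DMSO replicate 2, with log2 fold changes of 0.15 to 0.20 and adjusted p values up to 0.0873 (limma), under upper quartile scaling, where the log2 fold change was 0.08, and with no filter on low values (adjusted p of 0.0588). SPRED2, on chromosome 2 from 65310851 to 65432637, had 9.86, 10.8 and 10.5 FPKM in DMSO replicates 1, 2 and 3, and 11.8, 10.9 and 11.1 FPKM in PD replicates 1, 2 and 3. The libraries did not overlap, yet the log2 fold change of 0.10 (standard error 0.05) had an adjusted p of 0.115 (limma) and did not pass, and with upper quartile scaling the value was -0.02.

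The paired PEA3 factors changed unequally as well. ETV5, on chromosome 3 from 186046314 to 186110318, had 8.82, 8.91 and 8.26 FPKM in DMSO replicates 1, 2 and 3, and 15.1, 15.3 and 14.9 FPKM in PD replicates 1, 2 and 3. The PD libraries had an SD of 0.181 FPKM (n = 3) and stood well above those of DMSO. ETV5 had a log2 fold change of 0.74 ± 0.04 (SE, adjusted p = 1.22e-05, limma), the smallest adjusted p of the 10 genes. ETV4, on chromosome 17 from 43527844 to 43579620, had 11.3, 11.7 and 12.8 FPKM in DMSO replicates 1, 2 and 3, and 11.6, 13.3 and 12.6 FPKM in PD replicates 1, 2 and 3. These groups overlapped, and the log2 fold change of 0.06 (standard error 0.06, adjusted p of 0.451 from limma) did not pass, with a 95% confidence interval from -0.09 to 0.21. ETV5 shares 164 exon bases with DGKG on the same strand, and ETV4 shares 68 with DHX8 on the opposite strand. DHX8 was measured at 9.33 to 10.8 FPKM.

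PHLDA1, a pleckstrin homology domain gene that is induced by ERK signaling, lies on chromosome 12 from 76025447 to 76031776. It had 2.15, 1.95 and 1.87 FPKM in DMSO replicates 1, 2 and 3, and 1.93, 2.20 and 1.95 FPKM in PD replicates 1, 2 and 3. The groups overlapped almost entirely. Its log2 fold change was 0.02 with a 95% confidence interval from -0.16 to 0.19 and an adjusted p of 0.86 (limma), so the interval leaves room for small changes in either direction. An antisense gene, PHLDA1-AS1, shares 553 exon bases with it and was not analysed here.

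Because the pseudocount reduces the change of genes near 1 FPKM, the genes were fitted a second time as fragments, which the FPKM steps return as whole numbers, with limma voom. On that scale the log2 fold changes were 1.90 for DUSP5, 1.90 for SPRY4, 1.51 for DUSP6, 0.80 for ETV5 and 0.24 for SPRED1. The same 5 genes passed, where 62.7% of the genes fitted did, and 3 of them (DUSP5, SPRY4 and DUSP6) also exceeded 2-fold, where 11.5% of the 15069 genes fitted by voom did. The order of DUSP5 and SPRY4 cannot be told apart on this scale, with 95% confidence intervals of 1.60 to 2.20 and 1.54 to 2.25.

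**Figure D2:**
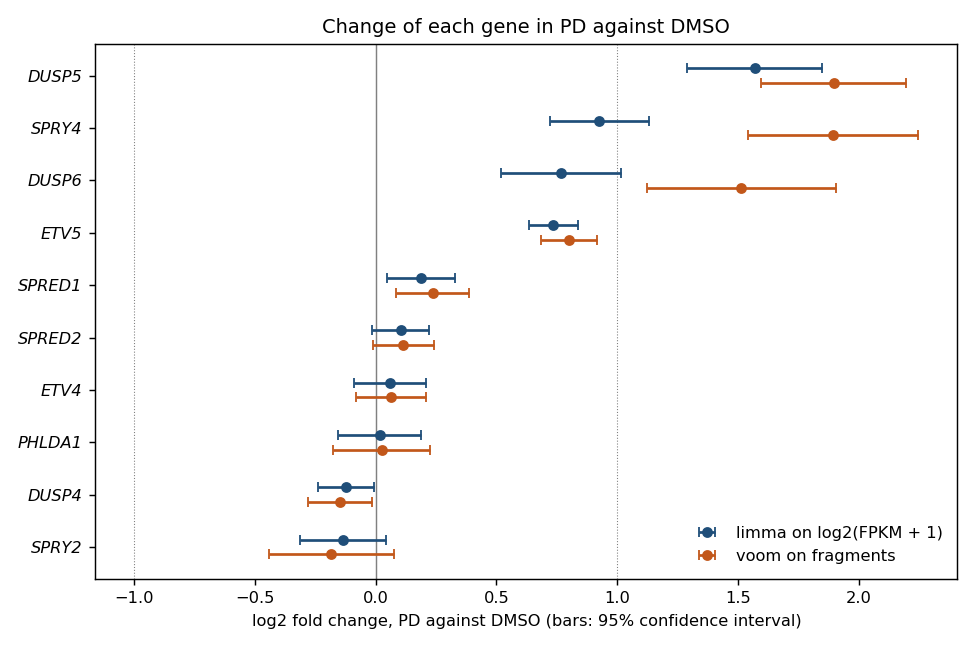
Log2 fold change of each gene in PD against DMSO on the horizontal axis, with 95% confidence intervals as bars, from limma on log2(FPKM + 1) in blue and from voom on fragments in orange (dotted lines at 2-fold). The estimates of both fits lie close together except for SPRY4, DUSP6 and DUSP5, for which voom gave 1.90, 1.51 and 1.90 and limma on log2(FPKM + 1) gave 0.93, 0.77 and 1.57.

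Unequal change within a family was measured directly as the ratio of FPKM of 2 genes in the same library, which does not depend on scaling between libraries. For ETV5 over ETV4 the ratio was 0.777, 0.762 and 0.645 in DMSO and 1.31, 1.15 and 1.18 in PD. ETV5 was thus below ETV4 in all 3 DMSO libraries and above it in all 3 PD libraries. For DUSP5 over DUSP4 the ratio was 0.456, 0.364 and 0.391 in DMSO and 1.45, 1.78 and 1.80 in PD, again with an exchange of places. For SPRY4 over SPRY2 it was 0.162, 0.198 and 0.123 in DMSO and 0.702, 0.608 and 0.713 in PD, so SPRY4 came closer to SPRY2 but stayed below it.
On the log2 scale these ratios differed between PD and DMSO by 0.74 ± 0.10 (SE) for ETV5 over ETV4, by 2.05 ± 0.14 (SE) for DUSP5 over DUSP4 and by 2.09 ± 0.21 (SE) for SPRY4 over SPRY2. For DUSP6 over DUSP4 the difference was 1.67 ± 0.20 (SE). SPRED1 over SPRED2 differed by 0.12 ± 0.05 (SE), also without overlap of the groups, and DUSP5 over DUSP6 by 0.38 ± 0.19 (SE), with overlap. Of the 6 ratios, the 5 without overlap had a two-sided exact permutation p of 0.10 each, the smallest that 3 against 3 libraries can give. After adjustment over the 6 ratios this was 0.12, while DUSP5 over DUSP6 had 0.20 by the same exact permutation test. The ratios use the same values as the single genes, of which 65.4% of all tested did not overlap. The share of ratios without overlap among other gene pairs was not measured.

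**Figure D3:**
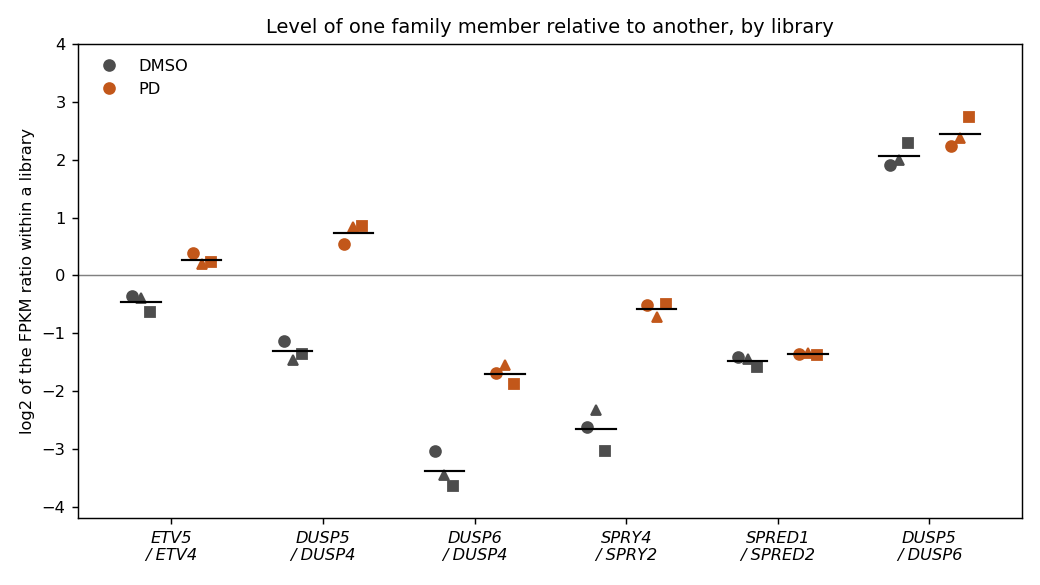
Log2 of the FPKM ratio of 2 genes within a library (vertical axis) for 6 pairs, with DMSO libraries in grey, PD libraries in orange, replicates 1, 2 and 3 as circle, triangle and square, and group means as lines. The ETV5/ETV4 and DUSP5/DUSP4 ratios cross 0, the line of equal FPKM, between DMSO and PD.

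The order of the 10 genes by level per length changed accordingly. In DMSO, ETV4 was the highest at 11.9 FPKM, followed by SPRED2 (10.4), ETV5 (8.67), DUSP4 (6.28), SPRED1 (3.72), SPRY2 (3.11), DUSP5 (2.54), PHLDA1 (1.99), DUSP6 (0.615) and SPRY4 (0.495). Of these neighbours, SPRY2 and DUSP5 overlapped in their libraries, as did DUSP6 and SPRY4. In PD, ETV5 was the highest at 15.1 FPKM, followed by ETV4 (12.5), SPRED2 (11.2), DUSP5 (9.56), DUSP4 (5.68), SPRED1 (4.38), SPRY2 (2.74), PHLDA1 (2.03), SPRY4 (1.84) and DUSP6 (1.75). There ETV4 and SPRED2 overlapped, PHLDA1 and SPRY4 overlapped, and SPRY4 and DUSP6 overlapped. DUSP5 moved up by 3 places, and DUSP6 and SPRY4 were the lowest pair in both groups.

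The genes also differed in length. Among those that passed, DUSP6 spans 5.27 kb, DUSP5 13.6 kb, SPRY4 16.0 kb, ETV5 64.0 kb and SPRED1 104 kb. Among those that did not, SPRY2 spans 5.15 kb, PHLDA1 6.33 kb, DUSP4 17.6 kb, ETV4 51.8 kb and SPRED2 122 kb. A relation of length to the change was not tested. Promoter GC content was 57.2% for DUSP6 and 65.6% for SPRY4, against 78.4% for SPRED1, 58.8% for SPRED2, 70.4% for SPRY2, 70.4% for PHLDA1 and a median of 58.0% over all windows.

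The closest relatives of the 10 genes were examined next. Of 6 paralogs, 5 were tested, with 2 higher and 1 lower in PD, so that 3 of 5 passed against 58.1% of all tested genes. PHLDA2, an imprinted growth regulator related to PHLDA1, rose from 52.8 ± 2.19 to 127 ± 1.71 FPKM (SD, n = 3 each), or 1.25 on the log2 scale (adjusted p = 1.74e-06, limma). ETV1, the remaining PEA3 factor, rose by 0.33 on the log2 scale, from 3.36 to 4.49 FPKM. SPRY1 fell by 0.24, from 1.40 to 1.03 FPKM, with an adjusted p of 0.0488 (limma). This call was lost under 7 of the 12 alternatives that tested it, namely without a filter, with the replicate block and without each library except DMSO replicate 3, with adjusted p values up to 0.143 (limma). SPRED3 had a log2 fold change of -0.29 (adjusted p of 0.0966 from limma) and PHLDA3 one of -0.04 (adjusted p of 0.598 from limma), and neither passed. Both were called lower under upper quartile scaling, and SPRED3 also by voom (adjusted p of 0.0154). SPRY3 was too low for testing, with 0.477 FPKM in DMSO and 0.375 FPKM in PD. Within the PHLDA family, then, PHLDA2 rose while PHLDA1 and PHLDA3 did not pass.

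The other 7 MAP kinase phosphatases were all tested, and 3 were higher and 2 lower, against 31.9% higher and 26.2% lower over all tested genes. DUSP7, a cytoplasmic phosphatase of ERK like DUSP6, rose by 0.53 on the log2 scale, from 7.19 ± 0.48 to 10.8 ± 0.27 FPKM (SD, n = 3 each). DUSP8 and DUSP16, which act mainly on JNK and p38, fell by 0.80 (from 4.40 to 2.11 FPKM) and by 0.77 (from 27.5 to 15.7 FPKM), with adjusted p of 5.61e-05 and 8.69e-06 (limma). DUSP1, the most abundant of all at 102 FPKM in DMSO and 124 FPKM in PD, rose by 0.28, a call lost under upper quartile scaling, with no filter on low values and without DMSO replicate 2, where adjusted p values reached 0.152 (limma). The remaining higher call, that of DUSP10, was lost with no filter and without PD replicate 2 or 3.

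Of 11 other negative regulators of RAS and ERK signaling, 10 were tested, and 4 were higher and 5 lower, against 31.9% and 26.2% of all tested genes. PEA15, which holds ERK in the cytoplasm, rose by 0.74 on the log2 scale (adjusted p of 5.88e-06 from limma), from 68.7 to 115 FPKM. ERRFI1, a feedback inhibitor of the EGF receptor, rose by 0.52. NF1, which encodes neurofibromin, the partner of the Spred proteins, fell by 0.49, from 5.38 ± 0.337 to 3.55 ± 0.127 FPKM (SD, n = 3 each).

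Genes other than these that ERK signaling is known to induce were read from a list of 13, of which 12 were tested, and 5 were higher and 6 lower in PD, against 31.9% and 26.2% of all tested genes. EGR1, an immediate early zinc finger factor, rose from 0.746 ± 0.305 to 2.90 ± 1.05 FPKM (SD, n = 3 each), with a log2 fold change of 1.14 on log2(FPKM + 1) and of 1.95 by voom on fragments, since the pseudocount reduces the change of low genes. SPHK1, which makes sphingosine 1-phosphate, rose by 1.06 and HBEGF, a ligand of the EGF receptor, by 0.96. FOS (0.55, and 0.95 by voom) and PLAUR (0.49) rose by less, and FOS lost its call without PD replicate 2 and with no filter. MYC fell by 0.95 on the log2 scale, from 216 to 112 FPKM, and CCND1, which encodes cyclin D1, fell by 0.51. LIF (-0.39), FOSL1 (-0.36), EPHA2 (-0.35) and IER3 (-0.20) fell by less, and EMP1 (0.13, adjusted p of 0.0801 from limma) did not pass. IER3 lost its call without DMSO replicate 1 or PD replicate 1, with the replicate block and with no filter. The median log2 fold change of the 12 was -0.03.

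Upstream of ERK, 10 of the 12 receptor tyrosine kinases were tested, with 6 higher and 3 lower, against 31.9% and 26.2% of all tested genes. The receptors for fibroblast growth factors FGFR1 (1.16), FGFR4 (0.83) and FGFR3 (0.73) had the largest rises on log2(FPKM + 1), FGFR1 from 4.22 ± 0.347 to 10.6 ± 0.298 FPKM (SD, n = 3 each). By the ratio of FPKM, ERBB3 (1.81-fold) rose by more than FGFR3 (1.75-fold). FGFR2 lay below the minimum of 0.5 FPKM and went the other way, from 0.322 to 0.0443 FPKM. By voom, on 36 to 44 fragments per DMSO library and 3 to 7 per PD library, FGFR2 fell by 2.86 on the log2 scale. It entered that fit, which required at least 10 fragments in at least 3 libraries, through its DMSO libraries alone, so no p-value is given for it. EGFR, the most abundant receptor of the list, fell by 0.64, from 110 to 70.3 FPKM. Of 10 ligands, 3 were tested, and TGFA (0.61) and AREG (0.34), both ligands of the EGF receptor, rose while FGF2 fell by 0.89. AREG, at 0.485 FPKM and 11 to 17 fragments per library in DMSO, passed the filter through its PD libraries, its log2 fold change was 0.84 by voom, and its call was lost with the replicate block and without DMSO replicate 2 or 3 or PD replicate 2 or 3. Of 19 genes of the cascade and its adaptors, all tested, 3 were higher and 7 lower, none beyond 2-fold, so that 10 of 19 passed against 58.1% of all tested genes. The largest changes on log2(FPKM + 1) were falls of PTPN11 (-0.58), the phosphatase SHP2 that passes receptor signals to RAS, of BRAF (-0.38) and of NRAS (-0.36). By voom, which has no pseudocount of 1 FPKM, the rises of the lower genes KSR1 (0.49) and GAB1 (0.48) were larger than the falls of BRAF (-0.45) and NRAS (-0.37). On log2(FPKM + 1), GAB1 did not pass (0.22, adjusted p of 0.0655 from limma). MAPK3, which encodes an ERK kinase, did not pass (0.12), and neither did MAP2K1 (-0.06), which encodes a MEK kinase. Under upper quartile scaling HRAS and MAP2K2 lost their calls, and MAP2K1 and GRB2 were called lower, and the value of MAPK3 turned negative without passing.

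At the level of transcription factors, 10 ETS factors, CIC and CIC cofactors were tested, with 4 higher and 1 lower, so that 5 of 10 passed against 58.1% of all tested genes. Upper quartile scaling gave 3 higher and 3 lower, with the call of ELK1 lost and ETS1 and ETS2 called lower, and both median-of-ratios scaling and voom gave 4 and 2. CIC, the repressor of several of the genes described here, rose by 0.35 on the log2 scale, from 11.8 ± 0.485 to 15.3 ± 0.29 FPKM (SD, n = 3 each), and its cofactors ATXN1 (0.07) and ATXN1L (0.05) did not pass. ELK3 (0.56) and ETV3 (0.33) also rose. Among 7 kinases that ERK activates, 5 were tested and 4 were higher, against 31.9% of all tested genes, with MKNK1 (0.79), RPS6KA1 (0.75) and MKNK2 (0.58) ahead. Over the 9 lists around the 10 genes, 59 of 81 tested genes passed, 33 higher and 26 lower, against 58.1% of all tested genes. Upper quartile scaling turned this balance, with 29 higher and 34 lower. Exons of PTPN11, BRAF, MAP2K1, HRAS, KSR1, ATXN1L, ETS2, NF1, ERRFI1, PEA15, MYC, CCND1, IER3, LIF, SPHK1, ELK3, FGFR1, EGFR, FGF2 and MKNK1 overlap genes on the opposite strand, and the sources used here do not state whether counting used strand, so their values are less certain.

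**Figure D4:**
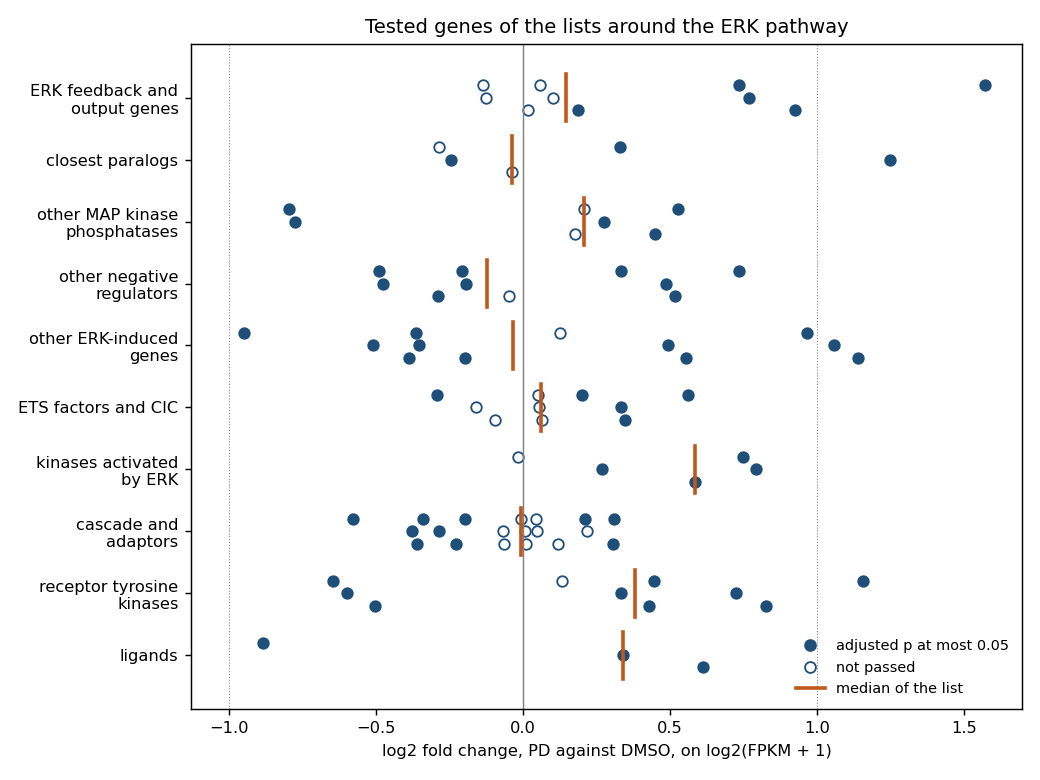
Log2 fold change on log2(FPKM + 1) of every tested gene (horizontal axis) in the 10 feedback and output genes and in the 9 lists around the pathway (rows), filled where the adjusted p was at most 0.05 and open where it was not, with the median of each list as a vertical bar and dotted lines at 2-fold. The 10 genes reach from -0.14 to 1.57, and most other lists hold genes on both sides of 0.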

How the data were processed

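From poly(A) RNA the authors made paired-end reads, which HISAT2 placed on hg38 and HTSeq 0.6.0 counted per gene, and they deposited FPKM for 6 libraries, 3 per treatment, as 1 table. The annotation release and the strand setting are not given in the sources used here. Samples were grouped by their labels. The deposited FPKM were tested with limma 3.58.1 in R 4.3.3 on log2(FPKM + 1) with an intensity-dependent prior variance, without covariates, where the mean over all libraries reached 0.5 FPKM. Whole fragments were worked back for all 28563 genes from the steps of the FPKM and gave depths of 16308476 to 18071632 fragments. Libraries of a group differed by a chi-square of 2.22 to 3.55 per gene, above the sampling noise, so none was a duplicate. Exact permutation tests used scipy 1.17.1 and were two-sided. Single differences of ratios carry the SE of the group means. Promoter windows from RefSeq were searched for 10 motifs, all of which are reported. The limma and voom steps were run on simulated data. Large changes were placed in more highly expressed genes alone, so changes of low genes such as DUSP6 and SPRY4 were not covered.

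The genes and gene lists, named in full or by their 3 largest changes that passed, were chosen with earlier results of these data known. Paralogs and the list of ERK-induced genes were named in full, and DUSP1, DUSP10, EGFR, ERBB3, FGFR2, KSR1, GAB1, ELK1, ETS1, ETS2, MAPK3, MAP2K1, HRAS, MAP2K2, GRB2, ATXN1, ATXN1L and the marker HNF4A were named after their values were seen. The p-values measure the spread between dishes of 1 line. Some genes of the lists are not reported here. The alternatives were other pseudocounts, filters, scalings, voom on fragments, a replicate block and leaving out each library.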

Additional observations from a re-analysis of the deposited data

How the results depend on the processing

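DUSP5, DUSP6, SPRY4 and ETV5 were called higher under every alternative in which they were tested, with log2 fold changes of 1.46 to 1.90, 0.70 to 1.51, 0.86 to 1.90 and 0.61 to 0.80. SPRED2, ETV4 and PHLDA1 passed under none. The number of the 10 genes called was 3 in place of 5 with a minimum mean of 2 FPKM, which DUSP6 and SPRY4 do not reach, 4 with no filter on low values, 6 under both median-of-ratios and upper quartile scaling, and 4 or 5 without 1 library. Beyond 2-fold, 3 of the 10 genes were called in place of 1 by voom and also when the pseudocount was 0.1, and over all genes 1734 and 1248 in place of 520. Upper quartile scaling shifted the median log2 fold change of all genes by -0.11 and gave 3376 higher and 5263 lower genes, where the main setting gave 4588 and 3780. Under it SPRED1 lost its call and DUSP4 and SPRY2 were called lower. Correlations of deviations were -0.03, -0.0046 and 0.09 for equal replicate numbers and -0.08 to 0.08 for unequal ones. They showed no clear pairing by number, but with 3 libraries per group they cannot exclude it. With the replicate number as a block 8032 genes were called in place of 8368, and 5 of the 10 genes. Depth limits DUSP6 and SPRY4 most, with 40 to 62 and 40 to 55 fragments per DMSO library. Without 1 library, 7390 to 7953 genes were called over all genes, 511 to 561 beyond 2-fold, and 52 to 60 in the pathway lists.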
